A study of Mus musculus with 30 samples.

Results

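A set of 10 genes of the extracellular matrix was followed in RNA-seq of mouse colon. They are the proteases Adamts1, Adamts2, Adamts4, Adamts5, Adamts9, Mmp2 and Mmp14 and the inhibitors Timp1, Timp2 and Timp3. The genes were chosen by name, as a protease and inhibitor system that includes Adamts5, and all 10 were present among the 46078 genes of the count table. The study had 30 libraries, each from 1 C57BL/6J mouse, with 6 animals in each of 5 groups. CD F and CD M were females and males on control diet (CD, 10% of the energy from fat), and HFD F and HFD M were females and males on high-fat diet (HFD, 60%). HFD+E2 M were HFD-fed males given estrogen (estradiol, E2) at 0.5 mg/kg body weight, while the other 4 groups received vehicle. Mice were 5 to 6 weeks old when obtained, the females kept their ovaries, diets lasted 13 weeks, and the 9 intraperitoneal injections fell in the last 3 weeks. No E2-treated females and no E2-treated CD males were analysed here, so that the effect of E2 was measured on HFD and in males alone.

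The matrix around intestinal smooth muscle, fibroblasts and crypts is renewed by secreted and membrane-bound zinc proteases. ADAMTS proteases fall into classes by substrate. Adamts1, Adamts4, Adamts5 and Adamts9 cleave the large proteoglycans aggrecan and versican, whereas Adamts2 removes the amino-terminal propeptide of fibrillar procollagens. Mmp14 is a membrane-anchored collagenase that activates pro-Mmp2, a gelatinase of basement membrane and denatured collagen. TIMP proteins bind the catalytic zinc site and block it. Timp2 also bridges pro-Mmp2 to Mmp14 on the cell surface, Timp3 stays bound to the matrix and is the main inhibitor of the ADAMTS aggrecanases, and Timp1 is an inducible inhibitor of many MMPs.

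The sequences that define both sides of this system are shown for Adamts5, Adamts2, Adamts9 and Timp2, which passed the adjusted threshold in a comparison of females with males, for Timp3, and for Mmp2 and Mmp14, the partners of Timp2, which did not pass it. A search of the annotated coding sequences (GENCODE M21, GRCm38) for the zinc-binding motif of these enzymes, in which 3 histidines hold the metal, found 1 site in each of the 7 proteases and 0 sites in Timp1, Timp2 and Timp3. The 33 coding bases of the site are given with the codons of the first histidine, the catalytic glutamate, the second histidine, the glycine or asparagine and the third histidine in capitals.

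Adamts5: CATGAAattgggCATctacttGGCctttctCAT

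Adamts2: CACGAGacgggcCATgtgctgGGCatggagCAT

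Adamts9: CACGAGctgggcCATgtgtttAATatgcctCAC

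Mmp2: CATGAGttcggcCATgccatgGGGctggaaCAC

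Mmp14: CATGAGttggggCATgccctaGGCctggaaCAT

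The Adamts5 site lies on the minus strand of chromosome 16 (85878015 to 85887826) and is split by an intron between exons 2 and 3 of 8, at residues 410 to 420 of 930. The Adamts2 site (chromosome 11, 50775403 to 50776134, plus strand, exons 7 and 8 of 22) and the Adamts9 site (chromosome 6, 92905285 to 92908493, minus strand, exons 8 and 9 of 40) are split in the same way. The sites of Mmp2 (chromosome 8, 92839279 to 92839311, plus strand, exon 8 of 13) and Mmp14 (chromosome 14, 54437627 to 54437659, plus strand, exon 5 of 10) each lie within 1 exon. Adamts5 shared 20 of the 33 bases with Adamts2, 18 with Adamts9, 18 with Mmp2 and 22 with Mmp14. The codon before the last 3 residues of the motif encodes glycine in Adamts5, Adamts2, Mmp2 and Mmp14, and asparagine in Adamts1, Adamts4 and Adamts9. The search first allowed glycine alone, and asparagine was added because those 3 proteases had no match.

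On the inhibitor side, TIMP proteins chelate the zinc with the amino-terminal cysteine of the secreted protein. The 39 coding bases from that cysteine are given for the inhibitors with the most reads, with the codons of the first cysteine and the next cysteine in capitals.

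Timp2: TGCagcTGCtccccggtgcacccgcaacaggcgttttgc

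Timp3: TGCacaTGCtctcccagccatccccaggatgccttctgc

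The Timp2 stretch starts at residue 27 in exon 1 (chromosome 11, 118354974 to 118355012, minus strand), and the Timp3 stretch at residue 24 in exon 1 (chromosome 10, 86300923 to 86300961, plus strand). Adamts1 (chromosome 16, 85793827 to 85803113) and Adamts5 (chromosome 16, 85858170 to 85901125) are neighbours on the minus strand with 53059 bases between them.

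Counts on genes ranged from 8667177 to 17243712 per library with a median of 11530915.5, and mitochondrial genes took 26.1% to 38.0% of them. The summed level of 11 markers of stratified squamous epithelium was 117.3 to 1368 TPM (a level corrected for gene length and for library total) in HFD F replicates 1, 3, 4 and 5 and HFD M replicates 2 and 4, and at most 14.5 TPM in every other library. These 6 libraries thus stood apart. Stratified squamous epithelium is not a layer of the colon mucosa, and the fold changes named for HFD groups are given with and without them, apart from those of Timp2, Timp3, Mmp2 and Mmp14 for E2. Markers of colon epithelium, smooth muscle, fibroblasts and endothelium were detected in every group.

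The levels of the members spanned a wide range (plot of TPM by group). Averaged over the 30 libraries, Timp3 had 66.7 TPM and Timp2 30.4 TPM, followed by Mmp14 with 18.5 TPM and Mmp2 with 15.8 TPM. The ADAMTS genes were lower, with 4.01 TPM for Adamts9, 3.42 TPM for Adamts1, 2.65 TPM for Adamts5, 2.43 TPM for Adamts2 and 0.278 TPM for Adamts4. Adamts5 had 101 to 319 counts per library, enough to be tested in every comparison, whereas Adamts4 had 1 to 39 and Timp1 0 to 19. Timp1 did not pass the filter on low counts in any comparison. Its summed counts over 6 libraries were 23 in CD F, 44 in CD M, 50 in HFD F, 27 in HFD M and 50 in HFD+E2 M, and its TPM was listed at 0 in 3, 3, 4, 3 and 1 of the libraries of these groups although most of them had counts. At this depth a difference in Timp1 was not detectable. Some exons lie opposite another gene: 21.3% of the exon bases of Timp3 overlap Syn3 on the other strand (96.5 counts on average) and 9.18% of those of Adamts9 overlap A730049H05Rik (0.1 counts). The libraries were stranded, but the strand setting of the counting was not given in the sources used here, so that without it such reads cannot be told apart.

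**Figure D1:**
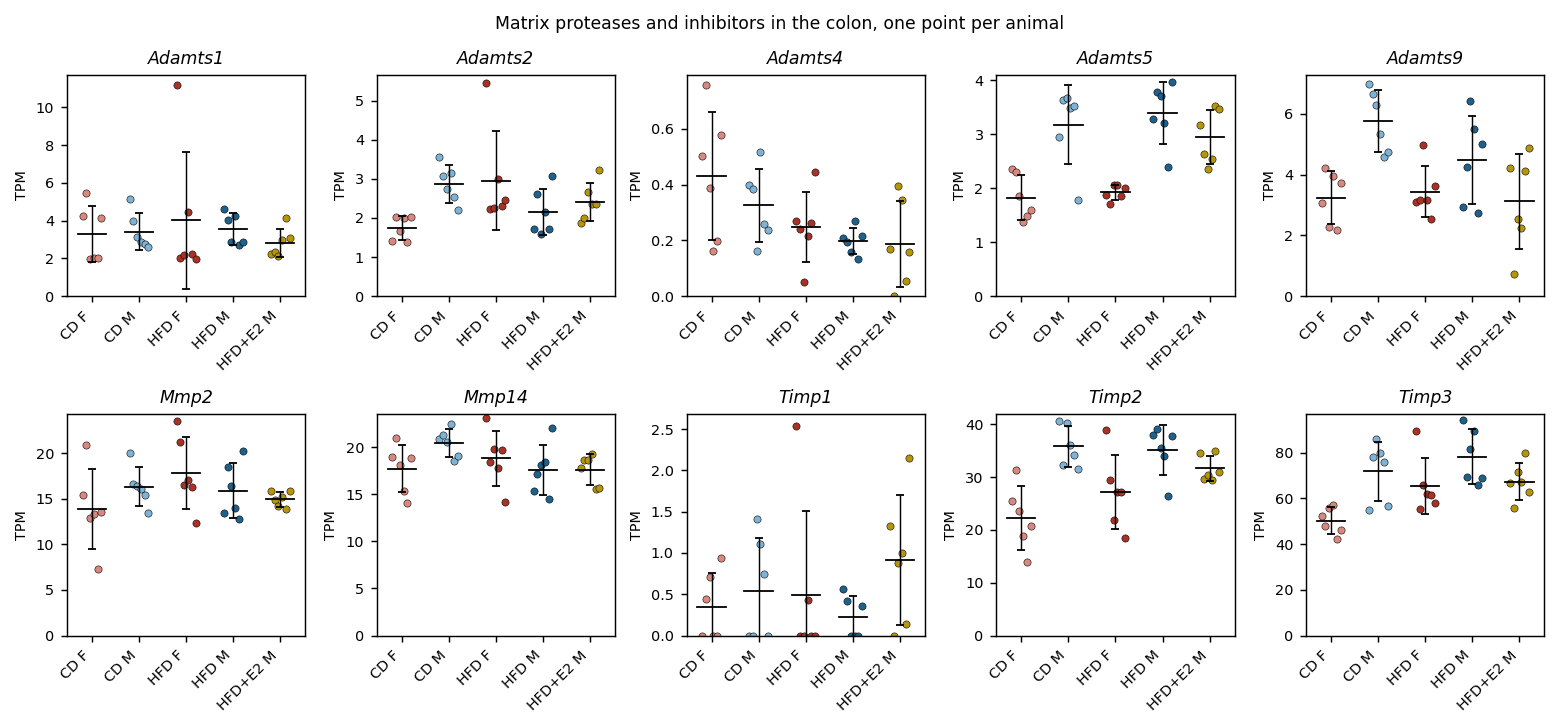
TPM of each of the 10 genes (y axis, linear, from 0) in each of the 5 groups (x axis), with 1 point per animal, a line at the mean and bars of 1 SD (n = 6). All 6 HFD F animals lie below all 6 HFD M animals for Adamts5, all 6 CD F animals lie below all 6 CD M animals for Timp2, and 1 HFD F animal (replicate 1) is highest of its group for Adamts1, Adamts2, Timp1 and Timp3.

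Adamts5, a major aggrecanase, was low in both female groups and higher in the 3 male groups. Its lowest, median and highest TPM were 1.36, 1.72 and 2.36 in CD F, 1.71, 1.94 and 2.06 in HFD F, 2.35, 2.89 and 3.51 in HFD+E2 M, 1.77, 3.50 and 3.67 in CD M, and 2.39, 3.49 and 3.97 in HFD M. The 6 HFD F libraries were below every HFD M and every HFD+E2 M library. The share of all genes without overlap is given below for HFD M in log2 CPM and is not given for HFD+E2 M. On CD the groups overlapped through 1 male, CD M replicate 6, with 1.77 TPM and 113 counts, while the other males of that group had 2.95 TPM or more. In the order of the means (CD F, HFD F, HFD+E2 M, CD M, HFD M), the step from HFD F to HFD+E2 M was 1.02 TPM, larger than the SD of either group, and the other neighbours in that order did not differ beyond their spread.

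To compare the sexes on CD, the 12 libraries of CD F and CD M were fitted together. Of the 9 members tested, Adamts2, Adamts5, Adamts9 and Timp2 were lower in females and 0 were higher at a Benjamini-Hochberg adjusted p under 0.05 over all genes (edgeR quasi-likelihood test). Of all 14922 genes tested, 2.92% passed this threshold in either direction, 2.14% with lower and 0.777% with higher values in females. The median log2 fold change of the tested members was -0.41, and that of all genes was 0.01. At the threshold of the study (unadjusted p under 0.05 and an absolute log2 fold change above 0.4), 5 members were lower, since Timp3 joined, against 6.21% of all genes.

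Timp2, the partner of Mmp14 and Mmp2, separated the sexes without overlap. Its lowest, median and highest TPM were 13.9, 22.1 and 31.3 in CD F and 31.6, 35.1 and 40.7 in CD M, and on the scale of log2 CPM, counts scaled to library size, 2.18% of all genes also had no overlap. Its log2 fold change was -0.58 (standard error 0.10, edgeR adjusted p = 0.00627), with an exact two-sided permutation p of 0.00216, the smallest that 6 animals against 6 can give. Timp2 stayed past the adjusted threshold when each library was left out in turn.

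Adamts5 in CD F had a log2 fold change of -0.70 against CD M (standard error 0.17, edgeR adjusted p = 0.0317, exact permutation p = 0.013). Adamts9, which had 2.18 to 4.24 TPM in CD F and 4.57 to 6.98 TPM in CD M, had a log2 fold change of -0.61 (standard error 0.15, edgeR adjusted p = 0.0413). For the procollagen peptidase Adamts2, with 1.38 to 2.02 TPM in CD F and 2.21 to 3.57 TPM in CD M, it was -0.55 (standard error 0.13, edgeR adjusted p = 0.0353). TPM of Adamts9 and of Adamts2 thus did not overlap between the sexes, whereas in log2 CPM both did, with 5 and 4 females, respectively, below the lowest male. The share of all genes without overlap in TPM is not given here. Timp3 had a log2 fold change of -0.41 (standard error 0.14, edgeR adjusted p = 0.137), with 42.1 to 57.3 TPM in CD F and 55.1 to 85.9 TPM in CD M. The other 4 tested members, Adamts1, Adamts4, Mmp2 and Mmp14, ranged from -0.14 to 0.46. For Mmp2 and Mmp14 the 95% intervals of the log2 fold change were -0.43 to 0.15 and -0.29 to 0.05. In log2 CPM, 4 females were below the lowest male for Mmp14 (exact permutation p = 0.0303, edgeR adjusted p = 0.543).

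The calls of Adamts5, Adamts2 and Adamts9 lay near the threshold. Leaving out CD F replicate 3 or 5 or 6, or CD M replicate 2, 3, 4 or 5, left 1 member past the adjusted threshold, and leaving out CD F replicate 1 or 2 left 2. Over all genes, 244 to 691 passed with 1 library left out, and 435 with none left out. Without CD M replicate 6, the male with few Adamts5 counts, the log2 fold change of Adamts5 was -0.82 with an edgeR adjusted p of 0.003.

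Markers of stromal cells were also lower in CD F. All 10 smooth muscle markers had negative log2 fold changes, 6 of them past the adjusted threshold, and their summed level was 2640 to 4093 TPM in CD F and 4149 to 6888 TPM in CD M. Of 10 fibroblast markers 9 were negative and 3 past the threshold, with 352.8 to 664.7 TPM in CD F and 620.6 to 1001 TPM in CD M, and of 8 endothelial markers 8 were negative and 1 past it, with 24.6 to 39.3 and 33.7 to 56.2 TPM. Other lists moved as well: 7 of 8 macrophage markers were negative, with 51.3 to 77.4 TPM in CD F and 72.7 to 113.7 TPM in CD M (score difference -0.29, exact permutation p = 0.0152), and 8 of 8 B cell markers were positive, with 13.8 to 64.2 TPM in CD F and 0.771 to 49.7 TPM in CD M (score difference 1.69, exact permutation p = 0.039). In both lists 0 markers passed the adjusted threshold (edgeR), and their part in the results was not tested. None of these markers was at 0 counts throughout a group. In bulk tissue, fewer cells of a type and less RNA per cell cannot be told apart. With a smooth muscle score (the mean log2 CPM of the markers) as a covariate, 0 members passed the adjusted threshold, the log2 fold change of Timp2 was -0.58 (edgeR adjusted p = 0.0632), that of Adamts5 was -0.37 and that of Timp3 turned to 0.13. With a fibroblast score, 0 members passed either threshold, and Timp2 was at -0.32 and Adamts5 at -0.30. Calls over all genes fell as well at the adjusted threshold. They were 435 of 14922 without a score, 224 of 15682 with the smooth muscle score and 16 of 15682 with the fibroblast score. At the study threshold, calls over all genes were 1366, 2138 and 716 of the same totals, and thus rose with the smooth muscle score. The members called there were 5 without a score and 3 with the smooth muscle score. These scores differed between the sexes themselves (differences of -0.60 and -0.39 in log2 CPM), so that sex and score were only partly separable.

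On HFD, Adamts5 alone of the 8 members tested passed the adjusted threshold between the sexes. It was lower in females, where 0.0725% of all 15179 genes tested were lower and 0.0988% passed in either direction. As listed above, its highest HFD F library had 2.06 TPM and its lowest HFD M library 2.39 TPM. The log2 fold change was -0.74 (standard error 0.12, 95% interval -1.01 to -0.48, edgeR adjusted p = 0.0283, exact permutation p = 0.00216). Of all genes, 0.362% had no overlap in log2 CPM. The size was close to that on CD, and a test of the difference between both diets, given below, did not call it.

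The other members with an unadjusted p under 0.05 in this comparison, which 5.09% of all genes had, were Timp2 and Adamts2. Timp2 had 18.6, 27.2 and 38.9 TPM as lowest, median and highest value in HFD F and 26.4, 36.6 and 39.1 TPM in HFD M, with a log2 fold change of -0.31 (standard error 0.11, edgeR adjusted p = 0.872, exact permutation p = 0.0108). Adamts2 had the opposite sign, 0.48 (standard error 0.21, edgeR adjusted p = 0.872, exact permutation p = 0.0801), with 2.24, 2.38 and 5.46 TPM in HFD F and 1.60, 1.94 and 3.06 TPM in HFD M, so that the groups overlapped widely. At the study threshold, 1 member was higher and 1 lower, against 2.01% and 1.08% of all genes. The other 5 tested members had log2 fold changes from -0.22 to 0.22, and the median of the members was -0.02 beside 0.01 for all genes.

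The size of the Adamts5 difference on HFD varied little, while its call did not always hold. Without any of HFD F replicates 1, 2, 3 or 4 or HFD M replicates 2, 3, 4 or 6 the edgeR adjusted p was 0.0564 to 0.0967, and the log2 fold change over all 12 such fits was -0.78 to -0.69. Without the 6 libraries with squamous markers, which left 2 females and 4 males, the log2 fold change was -0.78 (standard error 0.24, edgeR adjusted p = 1.0). With the smooth muscle or the fibroblast score as a covariate it was -0.72 (edgeR adjusted p = 0.0324) and -0.78 (0.0219), and DESeq2 gave -0.75 with an adjusted p of 9.6e-06. The call ended with the squamous score as a covariate (-0.77, edgeR adjusted p = 0.0547), with at least 10 counts required in every library (-0.73, 0.0712) and with the replicate number as a block (-0.74, 0.088). Smooth muscle markers in this comparison had a score difference of -0.15, with 2 positive and 8 negative log2 fold changes and 0 past the adjusted threshold, and fibroblast markers 0.20, with 9 positive and 1 negative. The endothelial score was lower in females (difference -0.26, exact permutation p = 0.00216), with 7 of 8 markers negative, and its part in the Adamts5 result was not tested. Leaving out the squamous libraries put Adamts2 at 0.19 and Timp2 at -0.46. Leaving out HFD F replicate 1 alone put Adamts2 at 0.31 (edgeR adjusted p = 0.924), and with the fibroblast score it was at 0.24.

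**Figure D2:**
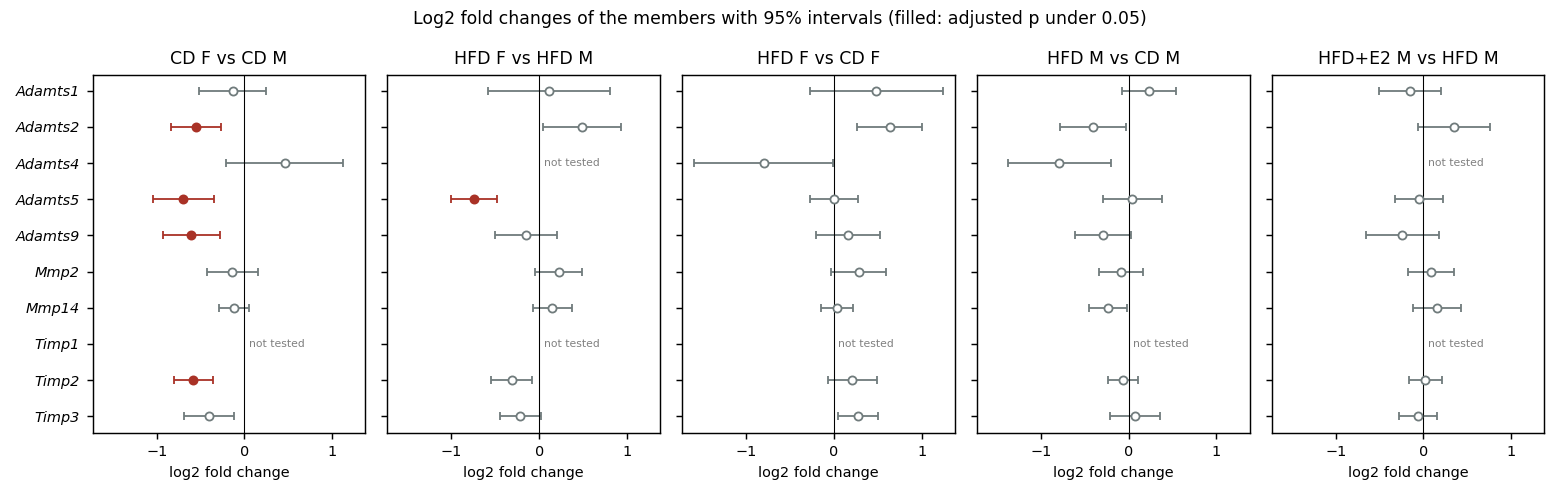
Log2 fold change (x axis) of each member (y axis) in the 5 comparisons, as points with 95% intervals from edgeR; filled red points passed an adjusted p of 0.05, open grey points did not, and members removed by the filter on low counts are marked. Adamts5 is filled in both comparisons of females with males (-0.70 for CD and -0.74 for HFD), its intervals include 0 in the 3 other comparisons, and Adamts2 lies on opposite sides of 0 for females against males with CD and with HFD.

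High-fat diet was compared with control diet within each sex. In females 0 of 9 members passed the adjusted threshold (edgeR), against 0.0199% of all 15061 genes, and 3 members had an unadjusted p under 0.05, as did 5.68% of all genes. At the adjusted threshold DESeq2 called 0 members and 214 of 27955 genes. Adamts2 had 1.38, 1.83 and 2.02 TPM as lowest, median and highest value in CD F and 2.24, 2.38 and 5.46 TPM in HFD F. These groups did not overlap in TPM but did in log2 CPM, and the share of all genes without overlap is not given here. The log2 fold change of Adamts2 was 0.63 (standard error 0.17, edgeR adjusted p = 0.446, exact permutation p = 0.00433), with 5 of 6 HFD F animals above every CD F animal in log2 CPM. Timp3 had a log2 fold change of 0.27 (standard error 0.11, edgeR adjusted p = 0.704, exact permutation p = 0.0541). Adamts4, with 8 to 39 counts in CD F and 4 to 21 in HFD F, had -0.80 (standard error 0.37, edgeR adjusted p = 0.876, exact permutation p = 0.0887). At the study threshold 1 member was higher and 1 lower, against 2.95% and 0.724% of all genes. The fibroblast score was higher by 0.32 in HFD F (exact permutation p = 0.0433), and with it as a covariate Adamts2 was at 0.24, while without the squamous libraries it was at 0.29. Without these libraries Timp3 was at 0.09, Adamts4 at -0.45 and Adamts5 at -0.06. With the fibroblast score Timp3 was at 0.12. With all libraries, Adamts5 was at -0.002 (95% interval -0.28 to 0.27), an interval that leaves out a change as large as its sex difference.

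In males 0 of 9 members passed the adjusted threshold (edgeR), as did 0.0% of all 14991 genes, and 3 members had an unadjusted p under 0.05, all with lower values on HFD, where 6.03% of all genes had one in either direction. At the adjusted threshold DESeq2 called 0 members and 25 of 27703 genes. Adamts4 had 10 to 26 counts in CD M and 7 to 11 in HFD M, with a log2 fold change of -0.79 (standard error 0.28, edgeR adjusted p = 0.727, exact permutation p = 0.00866). Adamts2 had 2.21, 2.91 and 3.57 TPM in CD M and 1.60, 1.94 and 3.06 TPM in HFD M as lowest, median and highest value, with a log2 fold change of -0.40 (standard error 0.18, edgeR adjusted p = 0.823, exact permutation p = 0.0563). Mmp14 had 18.5, 20.7 and 22.4 TPM in CD M and 14.5, 17.6 and 22.1 TPM in HFD M, with -0.23 (standard error 0.10, edgeR adjusted p = 0.823, exact permutation p = 0.0152). At the study threshold 0 members were higher and 2 lower, against 1.25% and 1.64% of all genes. Stromal markers had lower values on HFD too, with negative log2 fold changes for 10 of 10 smooth muscle markers (score difference -0.27, exact permutation p = 0.18) and 8 of 10 fibroblast markers (-0.28, exact permutation p = 0.0519), and 0 of them passed the adjusted threshold (edgeR). With the fibroblast score as a covariate Adamts2 was at -0.17, Mmp14 at -0.09 and Adamts4 at -0.67. Without the squamous libraries Adamts2 was at -0.46, Mmp14 at -0.23 and Adamts4 at -0.90. Adamts5 was at 0.04 (95% interval -0.30 to 0.38), at 0.0039 without the squamous libraries and at -0.08 without CD M replicate 6.

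Whether diet acted differently in the sexes was tested with the interaction of sex and diet in the 24 vehicle libraries, given as the female minus male difference on HFD less the same difference on CD. Here 0 of 9 members passed the adjusted threshold (edgeR), as did 0.0% of all 15800 genes, and 2 had an unadjusted p under 0.05, where 6.75% of all genes did. At the adjusted threshold DESeq2 called 0 members and 3 of 29614 genes. At the study threshold 1 member was higher, Adamts2, against 3.71% of all genes. Adamts2 was at 1.03 (standard error 0.25, edgeR adjusted p = 0.358), with lower values in females on CD and higher ones on HFD. Without the squamous libraries it was 0.74 and with the fibroblast score 0.40. Mmp14 was at 0.27 (standard error 0.13, edgeR adjusted p = 0.727), but turned to -0.03 with the fibroblast score and was at 0.08 without the squamous libraries. Adamts5 was at -0.05 (95% interval -0.48 to 0.38), and at -0.07 without the squamous libraries, so that a difference of its sex effect between the diets of up to about that size was not detectable.

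E2 was compared with vehicle in HFD males to ask whether estrogen moved these genes. Of 8 members tested, 0 passed the adjusted threshold (edgeR) and 0 had an unadjusted p under 0.05, while 10.2% of all 15010 genes had one and 0.00666% passed the adjusted threshold. At the adjusted threshold DESeq2 called 0 members and 50 of 27435 genes. Log2 fold changes ranged from -0.24 to 0.35, with a lowest p of 0.0874 in edgeR, and 0 members met the study threshold, which 5.87% of all genes met. Adamts5 had 207 to 242 counts in HFD M and 203 to 273 in HFD+E2 M, with a log2 fold change of -0.05 (95% interval -0.32 to 0.22) and -0.02 without the squamous libraries. For HFD F against the same HFD M libraries the log2 fold change of Adamts5 was -0.74 (95% interval -1.01 to -0.48). Whether estrogen has a part in that difference was not tested. Timp2 was at 0.02 (95% interval -0.17 to 0.21), Timp3 at -0.06 (-0.28 to 0.16), Mmp2 at 0.09 (-0.18 to 0.35) and Mmp14 at 0.16 (-0.11 to 0.43). The HFD M libraries entered 3 of the 5 comparisons between groups, so that the values of those comparisons are not independent.

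The relation of proteases to inhibitors was described within each library as a ratio of TPM values, for 3 pairs chosen after the levels were seen. The Mmp2 to Timp2 ratio was 0.618 ± 0.072 (SD, n = 6) in CD F and 0.456 ± 0.041 in CD M, and 0.662 ± 0.064 in HFD F and 0.452 ± 0.064 in HFD M, with 0.475 ± 0.044 in HFD+E2 M. Every female was above every male of the same diet. The Mmp14 to Timp2 ratio was 0.821 ± 0.126 in CD F, 0.575 ± 0.062 in CD M, 0.711 ± 0.113 in HFD F, 0.504 ± 0.069 in HFD M and 0.561 ± 0.083 in HFD+E2 M, again without overlap between the sexes on either diet. Since Timp2 itself was lower in CD F, the ratio to Timp2 was higher in CD F without overlap for 22.3% of the 14687 genes with TPM above 0 in every library compared, and the ratios of Mmp2 and Mmp14 do not stand out there. On HFD this share was 1.83%. The Adamts5 to Timp3 ratio was 0.0302 ± 0.0048 in HFD F and 0.0440 ± 0.0101 in HFD M without overlap, where 0.0202% of all genes had a lower ratio to Timp3 without overlap, and 0.0366 ± 0.0088 in CD F and 0.0440 ± 0.0073 in CD M with overlap. That share is 3 of 14821 genes, Adamts5 included. The highest HFD F ratio (0.0345) nearly reached the lowest HFD M ratio (0.0347). Adamts5 itself was lower in HFD F without overlap, so that this ratio is not a separate result.

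**Figure D3:**
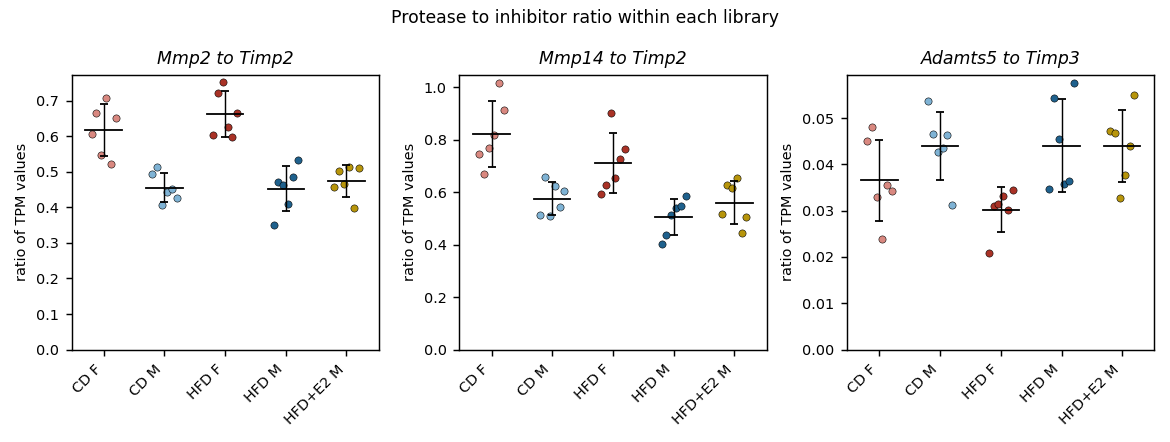
Ratio of TPM values within each library (y axis, from 0) for Mmp2 to Timp2, Mmp14 to Timp2 and Adamts5 to Timp3 in the 5 groups (x axis), with 1 point per animal, a line at the mean and bars of 1 SD (n = 6). Females lie above the males of the same diet for both ratios to Timp2, and HFD F lies below HFD M for Adamts5 to Timp3 (0.0208 to 0.0345 against 0.0347 to 0.0575).

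How the members varied together was described over the 30 libraries after each group's mean was subtracted, so that differences between groups do not enter. The points are libraries that share a tissue and vary in depth and cell content, and the correlations are given without a test. Among members, Mmp2 and Timp2 had the highest Pearson r (0.75), followed by Adamts1 with Timp2 (0.61) and Mmp2 with Mmp14 (0.58). Adamts5 was not close to any member, with r from -0.04 to 0.29, and at 0.06 to its chromosomal neighbour Adamts1. Of the marker scores, the fibroblast score had r of 0.72 with Adamts2, 0.67 with Mmp14 and 0.55 with Mmp2, and the smooth muscle score 0.66 with Timp3. Timp3 had r of -0.59 with the B cell score. For Adamts5 the scores gave 0.22 (smooth muscle), 0.25 (fibroblast), 0.29 (endothelium) and 0.40 (macrophage).

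**Figure D4:**
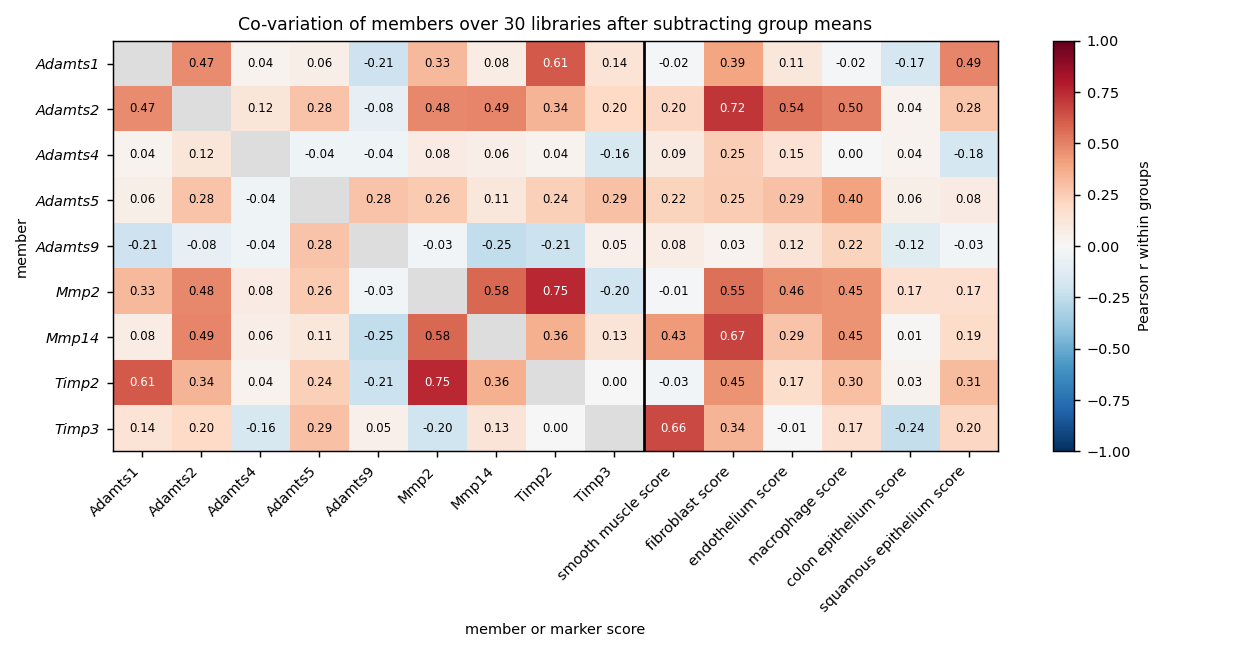
Pearson r within groups (colour and number) between each of 9 members (rows; Timp1 had too few counts) and the other members or 6 marker scores (columns, right of the line), over 30 libraries after subtracting group means. Mmp2 with Timp2 (0.75) and Adamts2 with the fibroblast score (0.72) are the highest values, and Adamts5 has no value above 0.40.

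Among 15334 genes with a mean of at least 1 CPM, those whose pattern was most like that of Adamts5 were Scara3 (r = 0.69 within groups, 0.76 before subtraction), Lipt1 (0.64), Bmp7 (0.64), Ntn4 (0.63) and RP24-95O4.2 (0.62). For Timp2 they were Adamts12 (0.82), Lum (0.76) and Mmp2 (0.75), and for Mmp2 they were Ptges (0.79), Dpt (0.78) and Pdgfrb (0.75). Adamts2 was most like Fbln2 (0.80), Sparc (0.74) and Col3a1 (0.74). Mmp14 was most like Akt2 (0.81), Puf60 (0.80) and Emc10 (0.78), Timp3 like Golim4 (0.80), Capzb (0.80) and Yeats2 (0.79), Adamts1 like Pvt1 (0.74), Flrt2 (0.72) and Hecw2 (0.67), and Adamts9 like D130040H23Rik (0.74), Pcdhga7 (0.67) and A530020G20Rik (0.63).

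The wider families and substrates were counted from lists of related genes. In CD F against CD M, 1 of 12 tested other ADAMTS proteases, 0 of 4 ADAMTS-like proteins, 0 of 11 other MMPs, 0 of 2 other inhibitors, 1 of 5 clearance factors and cofactors and 2 of 6 substrates passed the adjusted threshold, all lower in females, where 2.14% of all genes were. Adamts16 had 1 to 8 counts in CD F and 10 to 35 in CD M (log2 fold change -2.35, standard error 0.41, edgeR adjusted p = 0.00566). Fn1, the fibronectin gene, had 101 ± 15 TPM (SD, n = 6) in CD F and 185 ± 41 TPM in CD M (log2 fold change -0.72, edgeR adjusted p = 0.0413). The fibrillar collagen genes Col3a1 and Col1a2, whose procollagens belong to the classes that Adamts2 acts on, had log2 fold changes of -0.63 and -0.61 (edgeR adjusted p = 0.00282 and 0.00423). All 6 tested substrates met the study threshold with lower values in females, against 6.21% of all genes, with a median log2 fold change of -0.58, and 3 of these 6 are also markers in the fibroblast list. The list held 9 substrates, and the aggrecan gene Acan was not among those tested. Vcan, the versican gene, was the only proteoglycan tested (log2 fold change -0.45, edgeR adjusted p = 0.143). In HFD F against HFD M and in the other 4 comparisons, 0 genes of any of these lists passed the adjusted threshold (edgeR). At the study threshold 3 of 6 substrates were higher in HFD F than in CD F, against 2.95% of all genes, and 2 of 6 were lower in HFD M than in CD M, against 1.64%. In the interaction 4 of 6 were higher at that threshold, against 3.71%, with a median of 0.79.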

How the data were processed

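RNA-seq libraries of colon (total RNA depleted of ribosomal RNA, stranded kit) from 30 mice were grouped by the diet, sex and treatment in their labels. The authors aligned reads by STAR (GRCm38) and obtained gene counts by featureCounts, and the deposited counts are whole numbers without normalization. TPM values were calculated by the authors with StringTie and used as deposited, after summing genes listed more than once. The deposited FPKM and coverage columns from StringTie were not used. Counts of 30 of 30 libraries matched the TPM of the same library best.

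For each comparison, the raw counts of its 12 libraries (24 for the interaction) were fitted over all genes with edgeR 4.0.16 in R 4.3.3 (filterByExpr, TMM, robust quasi-likelihood F-test), with Benjamini-Hochberg adjustment over all genes tested. The study used DESeq2 and a p under 0.05 and an absolute log2 fold change above 0.4, without saying whether p was adjusted. Standard errors follow from the F statistic. Gene totals given for DESeq2 are those with a p-value, before its own filter on low counts that precedes the adjustment. Log2 CPM (prior count 2) of single genes was compared by an exact permutation test over all 924 splits. The fits were tested on simulated data. Counts are of reads without molecular identifiers.

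A member's fold change was named where its unadjusted p was under 0.05 or its groups did not overlap. Values of Adamts5, the ranges of E2 and some intervals were added after they were seen. For each member, the 3 genes (5 for Adamts5) with the highest within-group r were named (those of Adamts4 are not reported here), and from each related list those past the adjusted threshold. The members and lists were chosen with earlier results of these data known. Alternatives were DESeq2 1.42.0, its size factors, no filter, a stricter filter of 10 counts in each library, a joint fit of all 30 libraries, the replicate number as a block, marker scores as covariates, log2 TPM with 1 or 0.1 added, each library left out, and, added after seeing the data, the 6 squamous libraries left out. Marker lists of adipocytes and of enteric neurons and glia had 0 markers past the adjusted threshold in any comparison, and 0 of 5 mesothelium markers passed the filter on low counts.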

Additional observations from a re-analysis of the deposited data

Results flagged for a closer look

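A value far from the rest of its group was looked for in 50 sets, each the TPM of 1 gene in the 6 animals of 1 group, by the gap of the highest or lowest animal to its neighbour as a share of the range. Of these, 4 exceeded Dixon's 95% critical value for 6 animals, and chance gives about 1 in 20. All 4 were the highest value of HFD F and came from the same animal, replicate 1, which is also 1 of the 6 libraries with squamous markers (1295 TPM in sum). Adamts1 had 11.2 TPM and 396 counts there, against 1.98 to 4.47 TPM in the other 5 animals (gap share 0.73). Adamts2 had 5.46 TPM and 312 counts against 2.24 to 2.99 TPM (0.767). Timp3 had 89.5 TPM against 55.4 to 65.7 TPM (0.698), and Timp1 had 2.53 TPM from 19 counts against 0 to 0.427 TPM from 2 to 10 counts (0.832). Adamts5 had 1.86 TPM in this animal, within the range of its group. Whether these values are related to the squamous markers was not tested.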

How the results depend on the processing

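Directions were stable for the sex differences of Adamts2, Adamts5, Adamts9 and Timp2 on CD and of Adamts5 on HFD under every alternative tried, whereas counts of members past a threshold were not, and the cause of these changes was not tested. For CD F against CD M, the 4 members past the adjusted threshold were 2 with all 30 libraries, 2 with the squamous score, 0 with the smooth muscle score and 0 with the fibroblast score, and 1 to 5 with each library left out; the 5 at the study threshold were 3 with the smooth muscle score and 0 with the fibroblast score. Over all genes, that comparison had 435 of 14922 past the adjusted threshold, 373 of 16060 with all 30 libraries and 255 of 16049 with the squamous score. For HFD F against HFD M, 1 member and 15 of 15179 genes passed the adjusted threshold. Members were 0 with at least 10 counts in every library (1 of 13367 genes) or the squamous score (19 of 16156). Without the squamous libraries they were 0 (8 of 15756), and with each library left out 0 to 1. At the study threshold, 2 members and 469 of 15179 genes were called. Members were 1 with the fibroblast (437 of 16614) or squamous score (655 of 16156) and 1 to 2 with each library left out. For HFD F against CD F, the 2 at the study threshold were 1 with DESeq2, 1 with at least 10 counts, 1 with the smooth muscle score, 0 with the fibroblast or squamous score, 0 without the squamous libraries and 1 to 2 with each library left out. Over all genes, 553 of 15061 met it, 1018 of 27955 with DESeq2, 428 of 13410 with at least 10 counts and 594 of 16018 with the smooth muscle score. With the fibroblast score it was 499 of 16018, with the squamous score 426 of 16521 and without the squamous libraries 373 of 15827. For HFD M against CD M, the 2 at that threshold were 1 with DESeq2, 1 with its size factors, 1 with at least 10 counts, 1 with all 30 libraries, 1 with the smooth muscle score, 0 with the fibroblast score and 1 to 2 with each library left out. For HFD+E2 M against HFD M the count was 0 to 1, with 1 without HFD M replicate 6 or HFD+E2 M replicate 1. For the interaction, the 1 at the study threshold was 2 with DESeq2, 2 with no filter, 0 with the fibroblast score and 1 to 2 with each library left out.

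Signs turned for Timp3 in CD F against CD M with the smooth muscle score (0.13), for Mmp14 in the interaction with the fibroblast score (-0.028), and for Adamts5 in HFD F against CD F with the fibroblast score (0.025), on log2(TPM + 1) (0.062) and on log2(TPM + 0.1) (0.099). With each library left out, Adamts5 ranged from -0.050 to 0.053 in HFD F against CD F, from -0.082 to 0.096 in HFD M against CD M, from -0.105 to 0.0022 for E2 and from -0.107 to 0.066 in the interaction.

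The labels do not say whether the replicate numbers mark a pairing or a batch, and the data do not settle it. Correlations of same-numbered libraries, after each group's mean was subtracted, ran from -0.27 to 0.50. Their mean was above that of other-numbered libraries in each of the 5 comparisons. The gap was widest in CD F against CD M (0.24 against -0.05) and smallest in HFD F against HFD M (0.014 against -0.0033). With the replicate number as a block, 0 members passed the adjusted threshold in HFD F against HFD M (Adamts5 -0.74, edgeR adjusted p = 0.088), 1 passed the study threshold there, and 2 in the interaction. Over all genes, 12 of 16614 passed the adjusted threshold in HFD F against HFD M with the block and 15 of 15179 without it. The study threshold was met by 620 of 16614 there and by 1106 of 16555 in the interaction, against 469 of 15179 and 818 of 15800 without it. In CD F against CD M 5 members passed the adjusted threshold with the block, Timp3 among them (edgeR adjusted p = 0.0323). Over all genes, 978 of 16049 passed there with the block and 435 of 14922 without it. Calls over all genes with the block were 194 of 16521 for HFD F against CD F, 10 of 16166 for HFD M against CD M and 29 of 16365 for E2. Without it they were 3 of 15061, 0 of 14991 and 1 of 15010. At most 3 of 6 libraries correlated best with their own number in a comparison, and 0 in HFD F against CD F.

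Depth limited Adamts4 and Timp1, whose counts were at most 39 and 19.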
